A study of Homo sapiens with 12 samples.

Results

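MCFCA1 (CA1), the invasive line of the MCF10A breast epithelial series, was compared with MCFT1 (T1), its predecessor that the series design names atypical hyperplasia, across all genes. The comparison used 6 of the 12 RNA-seq libraries, 3 biological replicates of each line, and left out the libraries of MCF10A and MCFNeoT. MCF10A is an immortalised mammary epithelial line that does not form tumours, and MCFNeoT was made from it with a mutant HRAS gene. T1 and CA1 both descend from MCFNeoT through growth as xenografts in mice, so both groups carry the HRAS transgene. The series design calls the lines triple-negative, and its purpose was to test a workflow yielding DNA, RNA and peptides out of a single sample. No treatment is named. Each group is a single cell line, so a difference between them is a difference between these lines and need not be shared by other lesions of the same stage. Which CA1 subline was used, the passage and the medium are not given in the sources used here.

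HRAS is a small GTPase that relays signals from growth factor receptors. Its mutant form stays bound to GTP and drives the RAF, MEK and ERK kinases, whose output includes transcription factors of the ETS and AP-1 families and feedback phosphatases. Mammary epithelium holds basal cells, marked by keratins such as KRT5 and KRT14, and luminal cells, marked by KRT8 and KRT18. Lines of the MCF10A series grow as basal-like epithelial cells, and their progression has been studied for changes in adhesion, matrix proteolysis and growth control.

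Library totals ran from 18465135 to 25293996 counts in CA1 and from 23528574 to 30406187 in T1. Levels are CPM, counts scaled to a common library size with TMM factors, given as mean ± SD over 3 libraries (n = 3), and can be compared between libraries for a gene but not between genes of different length. Pearson's r between libraries on log2 CPM was 0.984 to 0.989 within a line and 0.873 to 0.878 between the lines. Cytoplasmic rRNA took 7.76% of the counts of T1 replicate 1, against 0.954% to 2.10% in the other 5 libraries. The row of 18S rRNA, RNA18S5, held 494, 409 and 604 CPM in CA1 and 16369, 1953 and 4374 CPM in T1, highest in T1 replicate 1. It was called (edgeR adjusted p = 0.0232), but not without any of the 3 CA1 libraries in turn (adjusted p from 0.0765 to 0.0863) and not with a replicate block (0.0797). Fold changes and adjusted p-values are from edgeR's quasi-likelihood test with Benjamini-Hochberg adjustment over 13479 tested genes, and a gene is called at an adjusted p under 0.05. In bulk RNA a smaller number of cells of a kind and less RNA per cell cannot be told apart. The labels call the replicates biological and say no more of them, so p-values measure the spread among these libraries.

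The lines differed in most of the genes they express. Of 13479 tested genes, 9668 (71.7%) were called, 4758 (35.3%) higher and 4910 (36.4%) lower in CA1. A called change of at least 2-fold was found for 3121 genes (23.2%), 1451 (10.8%) higher and 1670 (12.4%) lower. The 3 CA1 libraries and the 3 T1 libraries did not overlap for 9995 genes (74.2%). The median log2 fold change over all tested genes was -0.01 and the quartiles were -0.52 and 0.48. With so many genes called, the count of called members says little of a gene list by itself. Lists are therefore described by the direction of their calls and the size of their median, beside 35.3% higher and 36.4% lower for all genes. A change of at least 100-fold was fitted for 52 called genes that were higher and 120 that were lower in CA1.

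**Figure D1:**
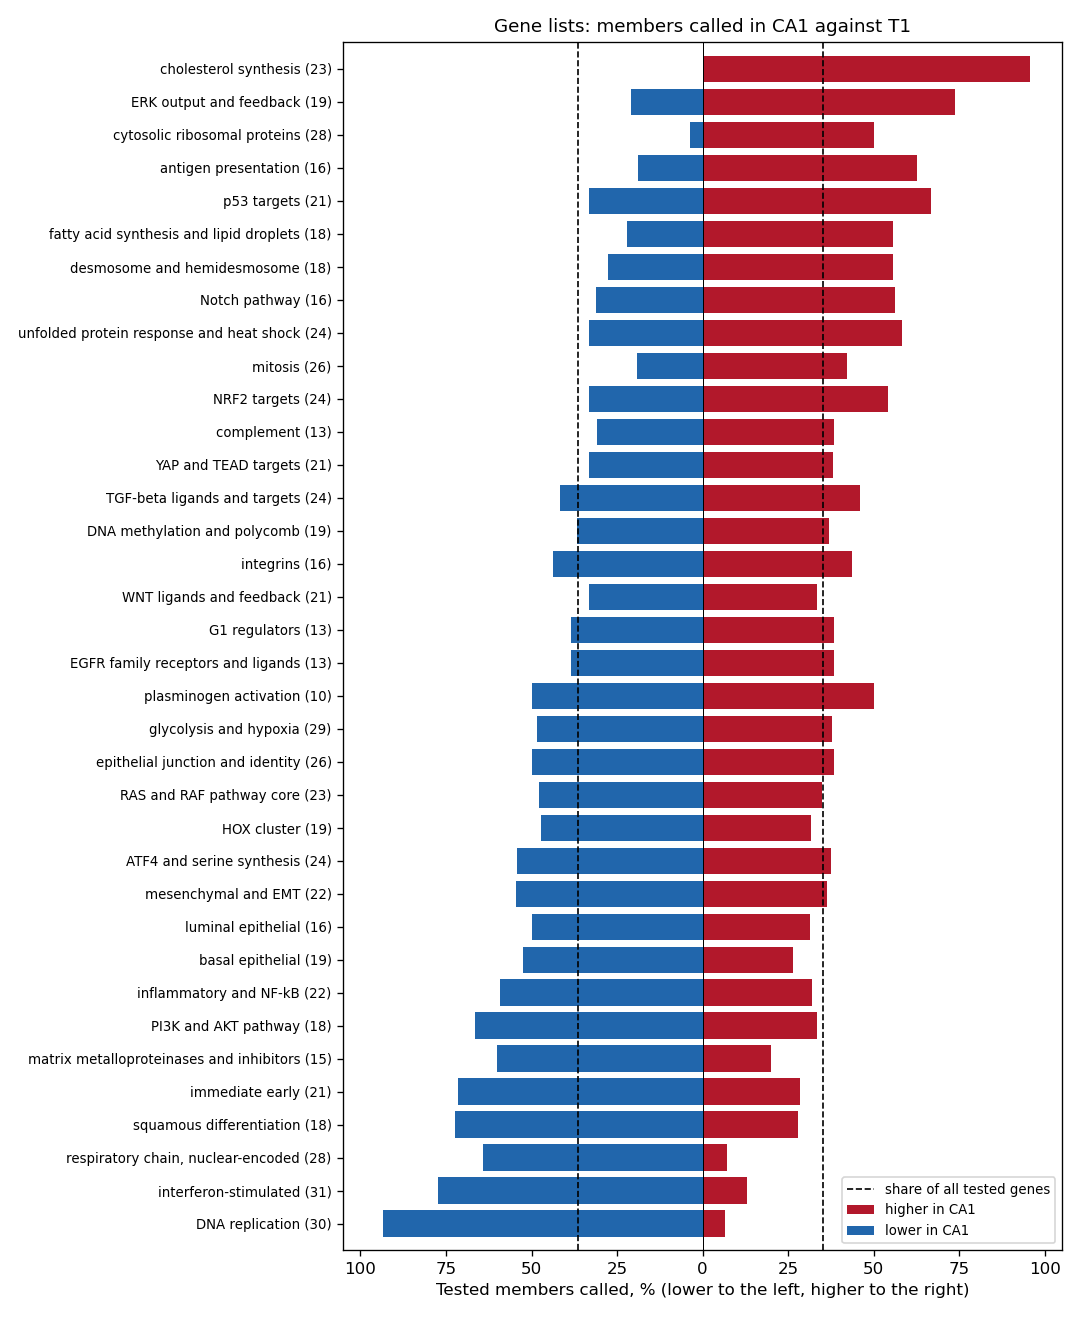
Share of the tested members of each gene list that were called higher (red, to the right) or lower (blue, to the left) in CA1 than in T1, with the number tested in brackets, for lists with at least 10 tested members. The dashed lines mark the shares among all tested genes, 35.3% higher and 36.4% lower. Cholesterol synthesis (22 of 23 higher) and DNA replication (28 of 30 lower) stand at the ends.

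Both lines had the RNA of epithelial cells. KRT7, a keratin of simple epithelia, stood at 6142 ± 206 CPM in CA1 and 4439 ± 237 CPM in T1. EPCAM, an epithelial surface protein, stood at 388 ± 11.6 CPM in CA1 and 235 ± 4.83 CPM in T1. Of the genes that define triple-negative tumours, the progesterone receptor gene PGR had no count in any of the 6 libraries. ESR1, the oestrogen receptor, was near 1 CPM (1.18 against 0.876 CPM), and ERBB2 was not called at 198 ± 10.2 CPM in CA1 and 196 ± 10.6 CPM in T1. Many markers of other cell types did not pass the low-count filter. It was passed by 5 of 14 leukocyte, 3 of 10 endothelial, 5 of 12 neural and 5 of 13 stromal fibroblast markers. The leukocyte gene PTPRC and 6 more of the 14 leukocyte markers had no count in any library, as did 4 of 10 endothelial and 4 of 12 neural markers. Single markers were expressed all the same. PECAM1, an adhesion protein of endothelium and platelets, measured 23.5 against 84.2 CPM in CA1 and T1, and CD14, a coreceptor for bacterial lipopolysaccharide, 19.1 against 90.9 CPM. CD68, a lysosomal protein of macrophages, was higher in CA1 at 81.7 against 6.58 CPM. The summed level of the leukocyte list was 103 to 107 CPM in CA1 and 106 to 114 CPM in T1. For the endothelial list it was 66.95 to 72.8 CPM in CA1 and 140.1 to 144 CPM in T1, and for the stromal fibroblast list 403 to 422 CPM in CA1 and 290.1 to 306 CPM in T1, where FBLN1, a matrix protein, measured 400.3 against 241 CPM. No cancer-testis gene passed the low-count filter, and 18 of the 19 with a row had no count.

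HRAS RNA was higher in CA1. Its libraries held 285, 298 and 306 CPM in CA1 and 168, 155 and 144 CPM in T1. The groups did not overlap, and the difference was 1.90-fold (log2 fold change 0.93 ± 0.05 SE, edgeR adjusted p = 5.02e-16). The table gives a single HRAS row (GRCh38 chromosome 11, 532242 to 535576), which does not separate the transgene from the cell's own gene. Along the pathway, 8 of 23 tested core genes were higher and 11 lower, with a median log2 fold change of -0.03. The lower calls of this list were 7 in a fit to all 12 libraries and 8 without CA1 replicate 2, against 8 higher in both. MAPK3, which encodes ERK1, was 2.32-fold higher (56.5 against 24.3 CPM). MAP2K1, the MEK1 kinase, was 2.36-fold lower. RASA1, a GTPase-activating protein that switches RAS off, was 3.04-fold higher at 394 ± 12.5 CPM in CA1 and 129.7 ± 4.35 CPM in T1. NRAS was not called (65.8 against 60.7 CPM).

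Genes on a list of ERK output, and of the feedback regulators that limit ERK, were mostly higher in CA1. Of 19 tested genes, 14 were higher and 4 lower, with a median log2 fold change of 1.12, and their summed level was 7085 to 7241 CPM in CA1 and 4196 to 4293 CPM in T1. EPHA2, a receptor tyrosine kinase, held 1338, 1426 and 1345 CPM in CA1 and 439.6, 443.7 and 422 CPM in T1. All CA1 libraries lay above all T1 libraries, and the fold was 3.15 (edgeR adjusted p = 8.11e-25). PHLDA1 was 2.78-fold and IER3 3.11-fold higher. DUSP4, a phosphatase that inactivates ERK in the nucleus, rose 2.69-fold, and FOSL1, the AP-1 subunit FRA1, rose 2.95-fold. The ETS factor gene ETV4 was 2.71-fold higher (94.3 against 34.9 CPM). CCND1 went the other way. This gene encodes cyclin D1, which starts G1 progression with CDK4 and CDK6, and it held 247, 263 and 254 CPM in CA1 and 1154, 1162 and 1150.2 CPM in T1. Every CA1 library was below every T1 library, a 4.54-fold difference (edgeR adjusted p = 1.14e-27). MYC was 1.68-fold lower (236 against 396 CPM). The immediate early genes, which cells transcribe within minutes of a stimulus, were kept on a separate list and were mostly lower. Of 21 tested, 15 were lower and 6 higher. EGR3 measured 2.79 against 45.5 CPM, EGR1 57.1 against 221 CPM and FOS 39.7 against 95.1 CPM, all called.

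EGFR and its ligands moved in both directions. EGFR itself was lower by 1.30-fold (136 ± 2.97 CPM in CA1 and 177 ± 6.02 CPM in T1) and ERBB3 higher by 1.32-fold. Of the ligands, EREG (epiregulin) was 5.65-fold higher at 276 ± 0.684 CPM in CA1 and 48.9 ± 0.894 CPM in T1, HBEGF 2.03-fold and TGFA 2.04-fold. EPGN (epigen) was 12.7-fold lower at 9.33 against 119.7 CPM, and AREG (amphiregulin) was not called at 628 ± 22.5 CPM in CA1 and 624 ± 8.60 CPM in T1. ERRFI1, an inhibitor of EGFR, was 2.92-fold lower. In the PI3K and AKT pathway, 12 of 18 tested genes were lower and 6 higher (median -0.48). The genes of all 3 class I regulatory subunits on the list were lower, PIK3R1 by 4.32-fold (18.5 against 79.8 CPM), PIK3R2 by 2.24-fold and PIK3R3 by 3.13-fold. The catalytic subunit gene PIK3CA was 1.497-fold higher. AKT1 and AKT2 were 1.33-fold and 1.46-fold lower.

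The genes of cholesterol synthesis and uptake were higher in CA1 almost without exception. These genes share control by SREBP transcription factors, which leave the endoplasmic reticulum when its sterol content is low. Of 23 tested genes, 22 were called higher, 17 of them at least 2-fold, and none lower, with a median log2 fold change of 1.63. The summed level of the list was 12330.0 to 12410.0 CPM in CA1 and 3453 to 3471 CPM in T1. HMGCS1, which makes HMG-CoA at the start of the pathway, held 1156, 1157 and 1123 CPM in CA1 and 80.96, 87.99 and 81.2 CPM in T1. The groups lay far apart and the fold was 13.7 (edgeR adjusted p = 4.61e-32). INSIG1, which holds SREBP in the endoplasmic reticulum, measured 595 ± 2.66 CPM in CA1 and 66.2 ± 2.33 CPM in T1 (8.98-fold). Further along the pathway, FDFT1 (squalene synthase) was 5.02-fold, SQLE (squalene epoxidase) 5.75-fold, MSMO1 (sterol methyl oxidase) 6.57-fold and DHCR7, which forms cholesterol in the last step of its branch, 3.35-fold higher. PMVK, phosphomevalonate kinase, was not called (18.95 ± 1.29 CPM in CA1 and 21.1 ± 2.03 CPM in T1). SREBF2, which encodes the SREBP that acts mainly on this pathway, was 1.86-fold higher at 700.2 against 377 CPM, and SREBF1 was not called at 609.7 against 634 CPM.

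**Figure D2:**
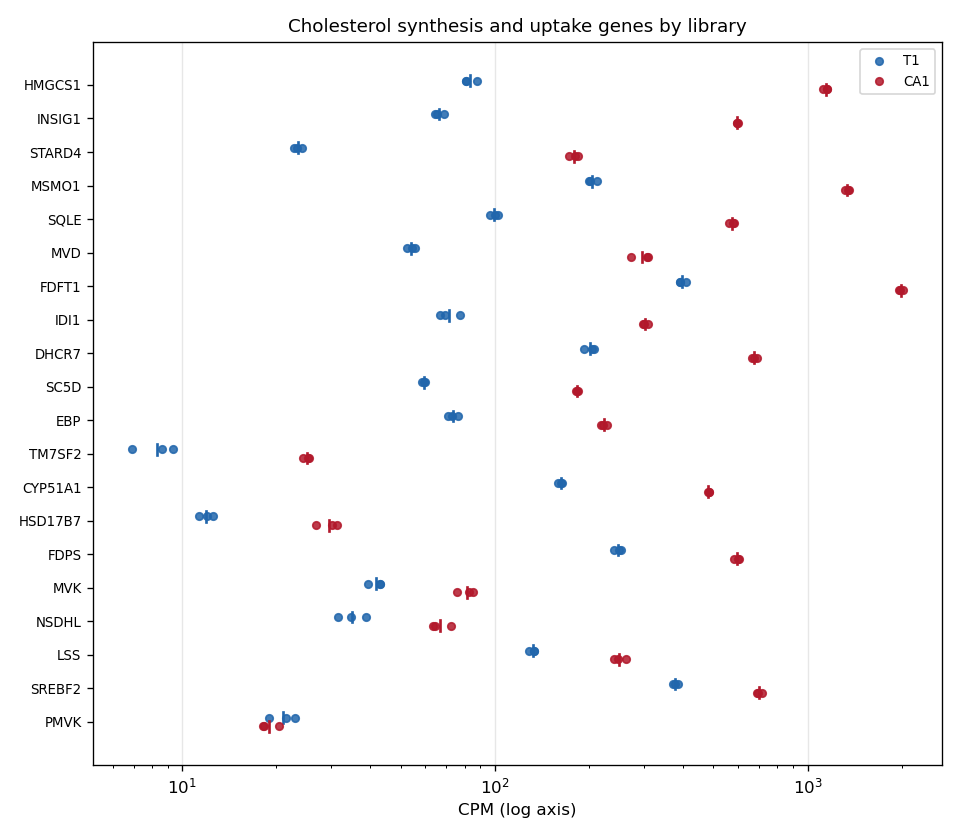
CPM of 20 of the 23 tested genes of cholesterol synthesis and uptake in each library, on a log axis, ordered by fold change. Red points are the 3 CA1 libraries, blue points the 3 T1 libraries, and the short bars their means. The 19 called genes drawn sit to the right in CA1, and PMVK at the foot shows no called difference.

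Fatty acid genes showed a smaller shift with a single large member. SCD, the desaturase that makes oleate, held 12130.0, 12143 and 11870.0 CPM in CA1 and 2210.4, 2242 and 2227 CPM in T1. It rose 5.41-fold (edgeR adjusted p = 7.88e-31) and had the highest CPM, with no allowance for length, of the called genes that changed at least 2-fold. FASN, fatty acid synthase, was 2.20-fold and ACLY, which supplies cytosolic acetyl-CoA, 1.80-fold higher. In all, 10 of 18 tested genes of fatty acid synthesis and lipid droplets were higher and 4 lower, with a median of 0.26. SCD5, a related desaturase, was 2.45-fold lower at 10.7 against 26.1 CPM. Some genes known from fat cells differed as well. PPARG, a nuclear receptor of lipid storage, was 2.41-fold higher (95.5 against 39.7 CPM) and the lipid droplet gene PLIN4 2.27-fold higher. LPL, the lipase that releases fatty acids from lipoproteins, had 0 counts in CA1 and 23.4, 24.97 and 23.4 CPM in the T1 libraries, at least 527-fold lower when set against a floor of 3 counts over the CA1 libraries. The adipocyte hormones ADIPOQ and LEP had no count.

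DNA replication and mitosis genes, which usually move together with the rate of division, parted in this comparison. Of 30 tested replication genes, 28 were lower in CA1, 21 of them at least 2-fold, and 2 were higher, with a median log2 fold change of -1.40 and a summed level of 628 to 646 CPM in CA1 and 1383 to 1406 CPM in T1. Of 26 tested mitosis genes, 11 were higher and 5 lower, none by 2-fold, with a median of 0.08 and a summed level of 1007 to 1052 CPM in CA1 and 964 to 1005 CPM in T1. MCM3, a subunit of the helicase that opens DNA at replication forks, held 19.8, 23.7 and 24.1 CPM in CA1 and 91.6, 89.8 and 86.9 CPM in T1. The fold was 3.94 with no overlap between the groups (edgeR adjusted p = 3.22e-20). MCM4 was 4.29-fold, MCM6 3.09-fold and MCM10 9.91-fold lower. RRM2, the regulated subunit of ribonucleotide reductase, was 3.69-fold lower (22.4 against 82.9 CPM), and UHRF1, which guides maintenance of DNA methylation at forks, 5.14-fold lower. E2F1, a transcription factor of the G1/S transition, measured 4.42 ± 0.772 CPM in CA1 and 24.01 ± 0.484 CPM in T1, 5.43-fold lower. CCNE1 (2.14 against 13.2 CPM) and CCNE2 (0.704 against 10.5 CPM), the cyclin E genes of the G1/S transition, were lower too. The exceptions were CDT1, which loads the MCM helicase in G1 and is degraded in S phase (1.23-fold higher), and RFC4, a subunit of the clamp loader (1.25-fold higher).

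Mitotic genes kept close to their T1 level. PLK1, a kinase of mitotic entry and spindle formation, held 60.2, 59.5 and 61.9 CPM in CA1 and 47.5, 44.98 and 44.1 CPM in T1. It was 1.33-fold higher (edgeR adjusted p = 1.90e-06). CCNB2 was 1.40-fold and PRC1 1.34-fold higher, and CCNB1 (73.5 against 69.97 CPM) and CCNA2 (42.5 against 41.3 CPM) were not called. The largest fall on that list was FOXM1, a transcription factor of the G2 and M phases, at 1.90-fold. MKI67, the proliferation marker Ki-67, was 1.30-fold lower (68.3 ± 9.30 CPM in CA1 and 88.3 ± 3.75 CPM in T1). Without T1 replicate 2 the mitosis list had 6 higher calls, and without T1 replicate 1 it had 8 lower calls, so its split of calls depended on single libraries. The replication list kept 27 or 28 lower calls under every alternative other than the test against a 2-fold change. Of the G1 regulators, CCND3 was 7.87-fold lower (14.7 against 116 CPM) and the CDK inhibitor CDKN1A (p21) 3.86-fold lower at 206 ± 8.55 CPM in CA1 and 795 ± 23.6 CPM in T1. CDK4, CDK6 and RB1 were not called. CDKN2A and CDKN2B, which encode inhibitors of CDK4 and CDK6, had no count in any library. The p53 targets other than CDKN1A were mostly higher, and 14 of 21 tested genes were called higher against 7 lower. GDF15, a secreted stress hormone, rose 8.10-fold to 4714 ± 141 CPM in CA1 and 582 ± 14.9 CPM in T1.

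The promoters of both gene groups are shown because their known control elements differ. RefSeq windows on GRCh38.p14, from 250 bases before to 50 after each annotated start, were at hand for 26 of the 30 replication genes and 20 of the 26 mitosis genes. They were searched on both strands for an E2F-type element, TTTNNCGC, and for the cell cycle genes homology region, TTTGAA. The E2F-type letters were in 17 of the 26 replication genes (65.4%), 3 of the 20 mitosis genes (15%), 12.9% of the 9755 tested genes with a window and 8.23% of all 27305 genes with a window. The share among the mitosis genes was close to that of tested genes. The TTTGAA letters were in 1 replication gene (3.85%), 14 mitosis genes (70%), 13.6% of tested genes and 18.2% of all genes. Matches may overlap each other, on the same or on opposite strands. The 1258 tested genes that hold the E2F-type letters had a median log2 fold change of -0.07 and the 8497 without it -0.01. The 250 bases before the start are printed 5′ to 3′ in the direction of the gene, with matches in capitals, for MCM3 (chr6:52284743-52284992, minus strand) and MCM6 (chr2:135876444-135876693, minus strand), which were lower in CA1, and CDT1 (chr16:88803539-88803788, plus strand), which was higher. All 3 hold the E2F-type letters.
MCM3: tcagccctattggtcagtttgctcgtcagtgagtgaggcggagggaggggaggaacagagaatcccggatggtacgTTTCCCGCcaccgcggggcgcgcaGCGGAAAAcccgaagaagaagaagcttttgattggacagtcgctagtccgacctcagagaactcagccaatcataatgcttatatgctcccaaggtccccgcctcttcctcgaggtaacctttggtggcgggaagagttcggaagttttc
MCM6: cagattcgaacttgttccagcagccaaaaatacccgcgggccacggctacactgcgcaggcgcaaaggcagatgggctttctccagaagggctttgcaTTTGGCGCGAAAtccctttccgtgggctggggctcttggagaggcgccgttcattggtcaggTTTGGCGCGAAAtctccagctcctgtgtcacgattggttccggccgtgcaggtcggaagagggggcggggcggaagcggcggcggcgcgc
CDT1: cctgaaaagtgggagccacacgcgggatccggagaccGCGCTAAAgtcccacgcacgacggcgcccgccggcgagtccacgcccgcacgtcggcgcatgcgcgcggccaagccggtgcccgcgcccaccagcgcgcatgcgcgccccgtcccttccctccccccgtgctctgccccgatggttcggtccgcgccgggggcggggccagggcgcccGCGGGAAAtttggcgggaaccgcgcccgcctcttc

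For the mitosis genes, PLK1 (chr16:23678639-23678888, plus strand) was higher and KIF11 (chr10:92592880-92593129, plus strand), a spindle motor, lower in CA1 (26.4 against 32.8 CPM, called). Both hold TTTGAA, in capitals, close to the start.
PLK1: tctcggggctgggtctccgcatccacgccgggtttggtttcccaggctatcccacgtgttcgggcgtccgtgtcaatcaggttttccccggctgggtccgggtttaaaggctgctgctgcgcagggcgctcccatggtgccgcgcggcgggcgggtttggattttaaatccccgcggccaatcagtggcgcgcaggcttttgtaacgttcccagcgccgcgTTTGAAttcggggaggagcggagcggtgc
KIF11: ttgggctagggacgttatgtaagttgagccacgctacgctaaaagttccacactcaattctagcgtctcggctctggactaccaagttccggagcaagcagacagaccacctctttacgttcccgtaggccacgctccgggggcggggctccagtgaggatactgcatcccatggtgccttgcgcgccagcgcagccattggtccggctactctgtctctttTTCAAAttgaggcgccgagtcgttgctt

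**Figure D3:**
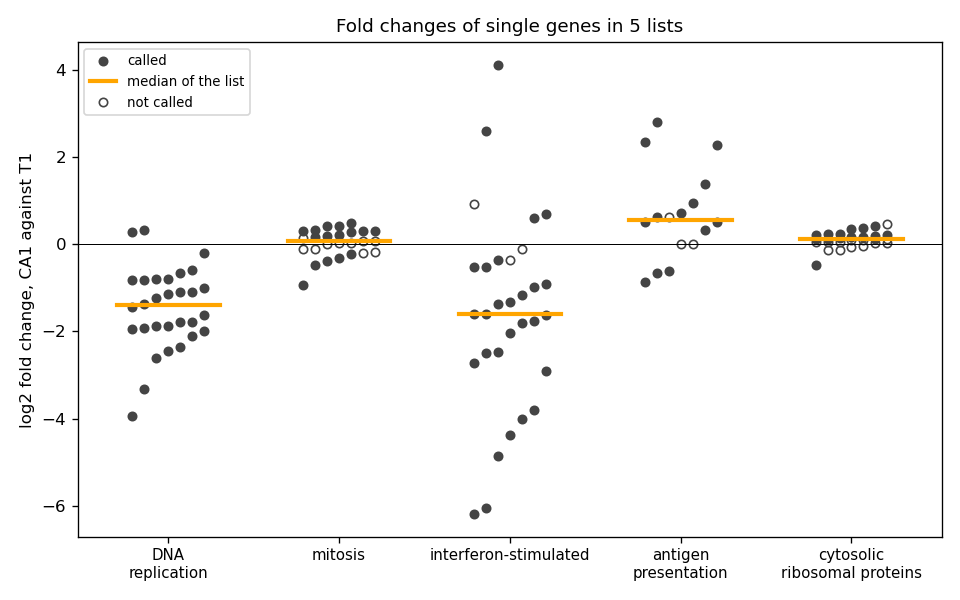
Log2 fold change of each tested gene, CA1 against T1, in 5 lists. Filled points were called, open points were not, and the orange bar is the list's median. The replication genes lie below 0 except for 2, the mitosis genes lie close to 0, and the interferon-stimulated genes spread from -6.20 to 4.12.

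Interferon-stimulated genes were mostly lower in CA1, while several genes of antigen presentation were higher. Interferons act through factors such as STAT2 and IRF9 on a shared element, and their targets block viral replication. Of 31 tested interferon-stimulated genes, 24 were lower, 19 of them at least 2-fold, and 4 higher, with a median of -1.61. The summed level was 668 to 706 CPM in CA1 and 1446 to 1458 CPM in T1. IFI6, a mitochondrial and endoplasmic reticulum protein induced by type I interferon, held 5.83, 8.36 and 7.60 CPM in CA1 and 113, 94.9 and 102 CPM in T1. All CA1 libraries were below all T1 libraries and the fold was 14.02 (edgeR adjusted p = 3.82e-22). IFIT1, which binds viral RNA, held 1.56, 0.929 and 1.44 CPM in CA1 and 26.7, 26.1 and 28.1 CPM in T1, 20.8-fold lower. IFI27 was 73.4-fold and IFIT2 28.9-fold lower, and IFITM2 fell from 81.5 to 1.29 CPM. IFITM1, IFITM2 and IFITM3 are near-identical in parts, so their reads could be split unevenly. Of the interferon signal relay, STAT2 was 1.29-fold and IRF9 1.43-fold lower, and IRF1 was not called.

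The 4 that went up were BST2, ISG20, IFI35 and IRF7. BST2 (tetherin), which holds budding viruses on the cell surface, held 159.5, 189 and 168 CPM in CA1 and 11.6, 10.3 and 7.47 CPM in T1, a 17.4-fold rise with no overlap. ISG20, an exonuclease, was 6.12-fold higher (25.4 ± 2.55 CPM in CA1 and 4.14 ± 0.216 CPM in T1), IFI35 1.61-fold and IRF7 1.53-fold. MX1 stayed under 1 CPM in both lines and was not called. The promoter windows of 23 of these 31 genes were searched on both strands for the interferon response element core, TTCNNTTTC. It was in 16 of the 23 (69.6%), against 8.89% of tested genes and 9.86% of all genes with a window. The 867 tested genes with a match had a median log2 fold change of 0.04 and the 8888 without it -0.03. The stretches before the start are printed with matches in capitals for IFI6 (chr1:27672193-27672442, minus strand) and IFIT1 (chr10:89392373-89392622, plus strand), which were lower in CA1, and for BST2 (chr19:17405631-17405880, minus strand) and ISG20 (chr15:88638766-88639015, plus strand), which were higher.
IFI6: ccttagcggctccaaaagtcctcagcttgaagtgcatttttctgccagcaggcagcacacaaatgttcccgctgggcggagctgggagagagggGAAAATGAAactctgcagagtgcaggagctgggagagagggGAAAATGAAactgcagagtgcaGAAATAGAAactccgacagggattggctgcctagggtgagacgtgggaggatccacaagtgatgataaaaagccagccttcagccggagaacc
IFIT1: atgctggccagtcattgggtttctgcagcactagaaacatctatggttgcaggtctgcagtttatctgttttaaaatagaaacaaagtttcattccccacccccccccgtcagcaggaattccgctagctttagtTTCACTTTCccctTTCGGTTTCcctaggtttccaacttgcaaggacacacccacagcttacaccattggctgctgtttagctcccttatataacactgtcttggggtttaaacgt
BST2: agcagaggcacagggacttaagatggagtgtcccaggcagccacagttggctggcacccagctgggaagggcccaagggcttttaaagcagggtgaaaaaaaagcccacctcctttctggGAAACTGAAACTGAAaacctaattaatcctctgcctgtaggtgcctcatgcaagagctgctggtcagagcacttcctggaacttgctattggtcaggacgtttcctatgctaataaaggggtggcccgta
ISG20: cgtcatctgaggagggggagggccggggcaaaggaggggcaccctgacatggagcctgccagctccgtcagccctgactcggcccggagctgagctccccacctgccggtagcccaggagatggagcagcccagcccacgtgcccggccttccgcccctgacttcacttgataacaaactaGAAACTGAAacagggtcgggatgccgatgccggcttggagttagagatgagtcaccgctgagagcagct

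MHC class I genes present peptides to T cells, and 10 of 16 tested genes of antigen presentation were higher and 3 lower (median 0.57). HLA-B was 4.90-fold higher (251 ± 15.2 CPM in CA1 and 51.2 ± 1.34 CPM in T1). B2M, the shared light chain, held 891, 895 and 902 CPM in CA1 and 459.6, 463 and 468 CPM in T1, a 1.93-fold rise. HLA-C was 1.82-fold lower (167 against 303 CPM). HLA genes are close copies that differ from the reference, and how the counting divided their reads is not given, so the single HLA genes are uncertain. The transporter gene TAP1 was 1.64-fold higher and TAP2 1.57-fold lower. The class II genes HLA-DRA and CD74 did not pass the low-count filter. Among the APOBEC3 cytidine deaminases on chromosome 22, named here after their values were seen, 3 were nearly absent from T1. APOBEC3F had 0 counts in T1 and 27.6, 25.3 and 26.9 CPM in CA1, at least 758-fold higher, and APOBEC3G held 59.4, 64.7 and 62.9 CPM in CA1 and 0, 0.125 and 0 CPM in T1. APOBEC3D measured 2.27 against 0.0650 CPM. The other members were less far apart, with APOBEC3B at 18.7 against 7.76 CPM, APOBEC3C at 151 against 108 CPM and APOBEC3H at 4.71 against 1.14 CPM, all called. In MCF10A, APOBEC3F stood at 9.70 to 11.7 CPM without TMM scaling, and in MCFNeoT it had no count.

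Basal and luminal genes changed in both directions. Of 19 tested basal genes, 10 were lower and 5 higher, and of 16 luminal genes 8 were lower and 5 higher. Their medians were -0.28 and -0.38, inside the quartiles of all tested genes (-0.52 and 0.48). The summed level of the basal list was 10050 to 10520 CPM in CA1 and 12220 to 13160 CPM in T1. For the luminal list it was 14610 to 15560 CPM in CA1 and 9334 to 9934 CPM in T1, opposite in direction to that list's median. Among all tested genes 71.7% were called, 35.3% higher and 36.4% lower. KRT5, the basal keratin, held 253, 283 and 261 CPM in CA1 and 2003, 1972 and 1820.0 CPM in T1. It fell 7.27-fold (edgeR adjusted p = 2.85e-27). KRT6A, a keratin of activated keratinocytes, was 131-fold lower (12.1 ± 0.449 CPM in CA1 and 1586 ± 80.9 CPM in T1), while the adjacent and closely similar KRT6B was 2.82-fold higher (693 ± 20.4 CPM in CA1 and 246 ± 1.62 CPM in T1). Reads from these near-identical copies could be shared between them, so both values are uncertain. TP63, the master regulator of basal cells, was 1.54-fold lower (26.6 against 41.1 CPM), and KRT15 and TRIM29 were slightly higher. NGFR, the low-affinity neurotrophin receptor, held 159, 168 and 165 CPM in CA1 and 9.73, 8.49 and 7.31 CPM in T1, a 19.2-fold rise.

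On the luminal side KRT18 and its partner KRT8 were higher. KRT18 held 3015, 3088 and 3286 CPM in CA1 and 969, 987 and 940.1 CPM in T1, 3.24-fold apart, and KRT8 was 2.23-fold higher. ALDH1A3, a retinal dehydrogenase of luminal progenitors, rose 2.78-fold (1531 ± 25.9 CPM in CA1 and 550.2 ± 8.14 CPM in T1). MUC1, the mucin of the apical surface, was almost lost: its libraries held 0.833, 0.296 and 0.452 CPM in CA1 and 194, 220.1 and 215 CPM in T1. CD24 was 12.4-fold lower (77.5 ± 1.97 CPM in CA1 and 960.1 ± 20.5 CPM in T1). GATA3, a luminal transcription factor, was 1.45-fold lower and FOXA1 was not called. KRT81, a hair keratin, was 4.63-fold lower (949 against 4399 CPM).

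Squamous differentiation genes were lower. Of 18 tested, 13 fell, each at least 2-fold, and 5 were higher, with a median of -2.09 and a summed level of 336 to 349 CPM in CA1 and 1998 to 2025 CPM in T1. The tissue kallikreins, serine proteases that cut the contacts between cells of stratified epithelium, made up much of it. KLK7 held 0.167, 0.0845 and 0.246 CPM in CA1 and 679, 715 and 706 CPM in T1. That was 4080.2-fold lower (edgeR adjusted p = 2.24e-36). KLK10 was 38.1-fold and KLK5 3.46-fold lower, and KLK8 fell from 17.8 to 0.0282 CPM. Of the 7 KLK genes tested, which lie side by side on chromosome 19, 6 were lower. All 7 had no count in MCFNeoT. KLK6 measured 44.4 ± 2.46 CPM in CA1 and 39.8 ± 0.620 CPM in T1, and its call as higher (edgeR adjusted p = 0.0470) was lost in 9 of the 15 alternative analyses other than the test against a 2-fold change, with an adjusted p of up to 0.222. TGM1, the transglutaminase that crosslinks the cornified envelope, measured 0.470 against 21.004 CPM, its substrate IVL (involucrin) 3.42 against 31.5 CPM, and KRT10, the keratin of suprabasal cells, 15.3 against 118 CPM, all called lower. SPRR1A, another envelope protein, was 9.80-fold higher (22.7 against 2.34 CPM). The number of squamous genes called higher was 2 in the fit to all 12 libraries and without CA1 replicate 2, and 3 without CA1 replicate 3, T1 replicate 1 or T1 replicate 3. The number called lower was 12 to 14 in the alternatives other than the test against a 2-fold change.

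Cell junction genes were mixed. Of 26 tested genes of epithelial junctions and identity, 13 were lower and 10 higher (median -0.11). CDH1, E-cadherin, held 367, 341 and 357 CPM in CA1 and 611, 657 and 636 CPM in T1. It was 1.79-fold lower (edgeR adjusted p = 5.17e-17) and remained well expressed. ESRP1, a splicing regulator of epithelial cells, was 1.73-fold higher. Of 18 tested genes of desmosomes and hemidesmosomes, 10 were higher and 5 lower (median 0.19). ITGB4, the integrin chain that anchors hemidesmosomes to laminin-332, held 8133, 8428 and 8117 CPM in CA1 and 2994, 3016 and 2840.1 CPM in T1. The 2.79-fold difference left no overlap (edgeR adjusted p = 6.39e-25). Its partner ITGA6 was 1.61-fold higher, and the laminin-332 chain genes LAMA3 and LAMB3 were higher by 1.28-fold and 2.42-fold. The desmosomal cadherins DSG3 and DSC2 were 2.46-fold and 1.67-fold lower.

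No concerted mesenchymal shift was seen. Of 22 tested genes of the mesenchymal and EMT list, 12 were lower and 8 higher, with a median of -0.45. VIM, the intermediate filament vimentin, held 350.4, 349 and 374 CPM in CA1 and 90.8, 92.7 and 95.6 CPM in T1. It was 3.85-fold higher (edgeR adjusted p = 4.01e-25), as was SPARC, a matrix glycoprotein, by 4.87-fold (152 ± 2.60 CPM in CA1 and 31.2 ± 1.63 CPM in T1). The receptor kinase AXL rose 2.004-fold. FN1, fibronectin, was 1.93-fold lower (33.4 against 64.1 CPM), and so was N-cadherin, CDH2 (11.03 against 17.4 CPM). Of the transcription factors that repress CDH1, SNAI2 was 2.24-fold lower (11.8 ± 0.872 CPM in CA1 and 26.3 ± 1.22 CPM in T1), TWIST1 1.59-fold lower and SNAI1 higher at a low level (2.42 against 0.573 CPM). ZEB1 was under 1 CPM in both lines and not called.

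**Figure D4:**
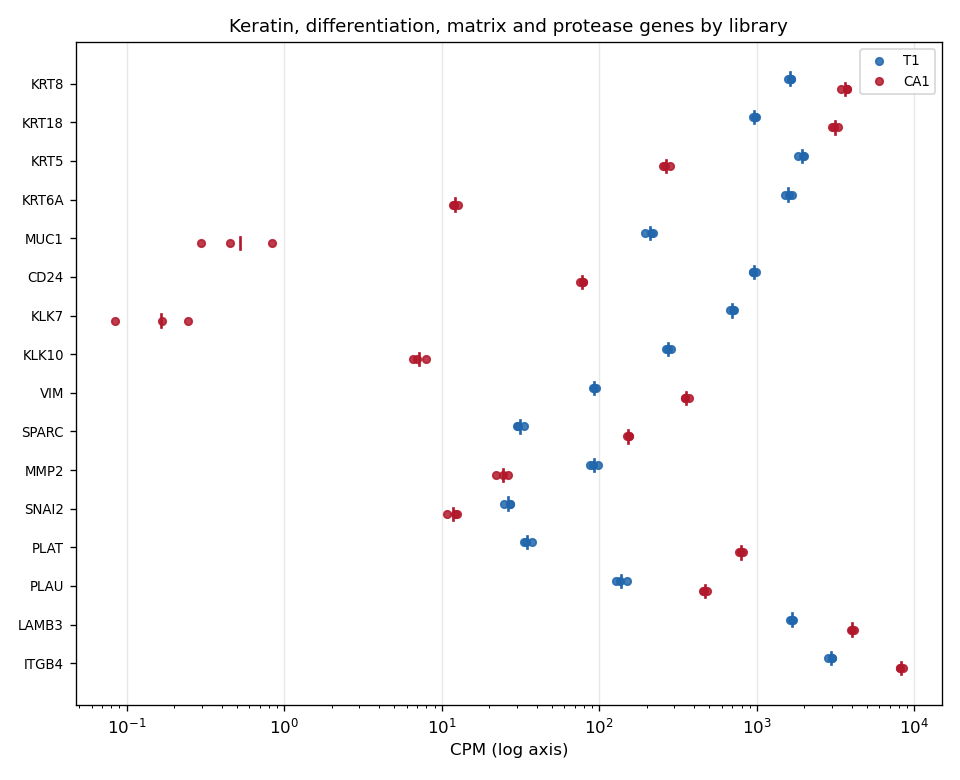
CPM of 16 keratin, differentiation, matrix, protease and laminin-receptor genes in each library, on a log axis. Red points are the 3 CA1 libraries, blue points the 3 T1 libraries, and the short bars their means. For every gene drawn the 2 groups of points are apart; KRT5, KRT6A, MUC1, CD24, KLK7, KLK10, MMP2 and SNAI2 lie lower in CA1 and the other 8 higher.

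Secreted proteases that clear matrix changed in opposite ways. Among the plasminogen activation genes, PLAT, tissue plasminogen activator, held 767, 821 and 788 CPM in CA1 and 33.1, 37.2 and 34.4 CPM in T1. It was 22.7-fold higher (edgeR adjusted p = 1.39e-32). PLAU, urokinase, was 3.40-fold higher (468 ± 13.6 CPM in CA1 and 137 ± 10.7 CPM in T1), and its receptor gene PLAUR 1.30-fold lower. Of the inhibitors of both activators, SERPINB2 fell from 60.4 to 0.193 CPM, and SERPINE2 was 6.22-fold higher (384 against 61.7 CPM). On a list of matrix metalloproteinases together with their inhibitors and relatives, 9 of 15 tested genes were lower and 3 higher. MMP2 was 3.78-fold (24.4 ± 2.30 CPM in CA1 and 92.5 ± 5.46 CPM in T1) and MMP28 3.68-fold lower, and MMP14, the membrane-bound protease that activates MMP2, was not called (271 ± 13.96 CPM in CA1 and 276 ± 11.6 CPM in T1). MMP1, a collagenase, was higher at a low level (4.22 against 0.228 CPM), and the inhibitor TIMP3 rose 2.84-fold (501 against 176 CPM). Integrin genes split evenly, with 7 of 16 in each direction. ITGB5 was 3.08-fold and ITGA3 1.61-fold higher, and ITGA5, the fibronectin receptor chain, 1.73-fold lower.

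LOXL4, a lysyl oxidase that crosslinks collagen, had the largest rise of the comparison. It had 0 counts in T1 and 156, 167 and 168 CPM in CA1, at least 4667-fold higher against the floor of 3 counts over the T1 libraries. It also had no count in MCF10A or MCFNeoT. FKBP10, a collagen chaperone, was 108-fold higher (176 ± 1.99 CPM in CA1 and 1.63 ± 0.544 CPM in T1). CEACAM5, the carcinoembryonic antigen, held 249, 229 and 230.4 CPM in CA1 and 0.910, 2.19 and 2.29 CPM in T1, and its neighbour CEACAM6 was 8.02-fold higher. MYH14, a non-muscle myosin, was 161-fold higher (66.8 against 0.410 CPM).

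Signalling genes of the TGF-beta, WNT and Notch pathways changed singly. Of 24 tested TGF-beta genes 11 were higher and 10 lower. TGFBR2, the receptor that binds the ligand, held 89.95, 81.4 and 86.1 CPM in CA1 and 594, 586 and 598 CPM in T1. This was 6.91-fold lower (edgeR adjusted p = 6.41e-29). The ligand TGFB1 was 4.14-fold lower (20.7 against 85.998 CPM), and the mediator SMAD3 was 3.47-fold higher (343 against 98.8 CPM). INHBA, the activin A subunit, rose 4.48-fold. BMP7 had 0 counts in T1 and 11.3, 12.1 and 13.2 CPM in CA1, at least 348-fold higher. WNT7A rose 12.7-fold (64.2 ± 1.82 CPM in CA1 and 5.08 ± 0.722 CPM in T1) and WNT7B 5.47-fold (216 against 39.4 CPM), with 7 of 21 tested WNT genes called in each direction. NOTCH3 was 2.73-fold and its ligand gene JAG1 1.82-fold higher, while JAG2 was 1.90-fold lower, and 9 of 16 tested Notch genes were higher and 5 lower. YAP and TEAD targets gave 8 higher and 7 lower of 21. CTGF and CYR61, the targets most often measured, were 2.88-fold and 1.87-fold lower. The summed level of the whole list was higher in CA1, at 3301 to 3359 CPM against 2655 to 2675 CPM in T1.

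Inflammatory and metal-responsive genes held some of the largest changes. Of 22 tested inflammatory and NF-kB genes, 13 were lower and 7 higher (median -0.64). The summed level of the list went the other way, at 1553 to 1586 CPM in CA1 and 1080 to 1124 CPM in T1. IL1B, the cytokine interleukin-1 beta, held 406, 387 and 394 CPM in CA1 and 17.9, 17.5 and 16.3 CPM in T1. It rose 22.9-fold (edgeR adjusted p = 3.28e-32), and the adhesion gene ICAM1 rose 98.7-fold (22.4 against 0.221 CPM). SAA1, an acute-phase protein, was 100.04-fold lower (0.876 ± 0.190 CPM in CA1 and 86.9 ± 5.32 CPM in T1), and BIRC3, an inhibitor of apoptosis, 4.99-fold lower. IL1RN, which blocks the interleukin-1 receptor, was 5.95-fold lower (9.48 against 56.5 CPM). PYCARD, the adaptor of inflammasomes that process IL1B, had 0 counts in CA1 and 14.95, 13.7 and 12.05 CPM in T1, at least 299-fold lower. It had no count in MCFNeoT either, and stood at 6.19 to 7.81 CPM in MCF10A without TMM scaling. Of 13 tested complement genes, 5 were higher and 4 lower (median 0.12). Higher members included 3 membrane regulators that protect cells from complement, CD46 by 2.91-fold, CD55 by 3.48-fold and CD59 by 1.94-fold. C3, the central component, was 1.49-fold lower (1040.5 against 1551 CPM). Of 5 tested genes on the metallothionein list 4 were lower, among them SLC30A1, a zinc exporter. MT2A held 345, 311 and 417 CPM in CA1 and 1424, 1949 and 1561 CPM in T1, 4.60-fold lower. MT1E had 3 counts over the CA1 libraries and 119.8, 157 and 137 CPM in T1, a ratio of 3056 (95% exact counting interval 1046 to 14822). Metallothionein genes are short and alike, so reads could be divided between copies.

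Metabolic and stress lists other than sterols moved less. Respiratory chain genes encoded in the nucleus were lower in 18 of 28 and higher in 2, none by 2-fold (median -0.29), with UQCRC1 at 1.57-fold and ATP5B at 1.51-fold lower. The share of counts on 2 mitochondrial rRNA rows was 0.335% ± 0.036 in CA1 and 0.253% ± 0.016 in T1 (exact permutation test, two-sided p = 0.1, the smallest that 3 against 3 libraries can give). Ribosomal protein genes were higher in 14 of 28 and lower in 1 (median 0.12). In glycolysis, LDHA, which makes lactate, was 2.42-fold lower (751 ± 3.70 CPM in CA1 and 1816 ± 60.2 CPM in T1), PKM 2.07-fold and GPI 2.69-fold lower, and HK2, the inducible hexokinase, 3.42-fold higher. TKT, transketolase of the pentose phosphate pathway, rose 2.51-fold (3281 ± 131 CPM in CA1 and 1306 ± 56.4 CPM in T1). Among the NRF2 targets, NQO1 was 2.95-fold higher and the ferritin heavy chain FTH1 2.65-fold lower (3471 ± 56.5 CPM in CA1 and 9202 ± 199 CPM in T1). ALDH1L2, a mitochondrial folate enzyme on the ATF4 list, held 0.0556, 0.0422 and 0.246 CPM in CA1 and 91.8, 98.5 and 96.2 CPM in T1. The amino acid transporter SLC7A5 was 2.32-fold lower, and ATF3 3.52-fold higher. HMGA1, a chromatin protein of proliferating and malignant cells, rose 3.45-fold (3843 ± 298 CPM in CA1 and 1115 ± 83.6 CPM in T1). Of the chromatin modifiers, EZH2 was 2.01-fold and DNMT1 1.83-fold lower, and 7 of 19 were called in each direction. HOX genes were lower in 9 and higher in 6 of 19 tested, with HOXB2 at 0.254 against 7.98 CPM and HOXC11 at 15.02 against 3.15 CPM.

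Some genes were expressed in a single line and had no count in the other. With 0 counts in all 3 T1 libraries and at least 10 CPM in CA1 there were 7 genes, and with 0 counts in CA1 and at least 10 CPM in T1 there were 9. Beside LOXL4, APOBEC3F and BMP7, PRSS21, a membrane serine protease known from testis, had 21.6, 21.5 and 24.1 CPM in CA1 and 0 counts in T1, at least 638-fold higher. In MCF10A, PRSS21 stood at 9.54 to 10.5 CPM without TMM scaling, and in MCFNeoT it had no count. VSTM2L held 0 counts in CA1 and 282, 265 and 244 CPM in T1, at least 5804-fold lower. MYADM, a membrane protein, was at least 1177-fold lower, ATP10A, a phospholipid flippase, at least 918-fold, and ALOX15B, a lipoxygenase, at least 815-fold. MYADM, ALOX15B and VSTM2L were expressed in MCF10A and MCFNeoT too, where they stood at 84.0 to 115 CPM, 127 to 210.0 CPM and 43.8 to 90.2 CPM without TMM scaling. ATP10A had no count there, and LPL had no count in MCF10A and 5 counts over the MCFNeoT libraries.

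EMD, which encodes emerin of the nuclear envelope, had 3 counts over the CA1 libraries and 53.5, 53.3 and 47.4 CPM in T1, a ratio of 1137 (95% exact counting interval 389 to 5515). Its neighbour on the X chromosome, FLNA, which encodes the actin crosslinker filamin A, held 45.8, 49.02 and 43.9 CPM in CA1 and 1184, 1178 and 1104 CPM in T1, 24.99-fold lower. RPL10 and DNASE1L1 of the same stretch, looked up after these values were seen, were not low in CA1. RPL10 was not called (1592 ± 16.1 CPM in CA1 and 1532 ± 74.1 CPM in T1), and DNASE1L1 was 2.57-fold higher. EMD stood at 54.8 to 85.5 CPM and FLNA at 1325 to 1795 CPM in MCF10A and MCFNeoT without TMM scaling.

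Some changes ran along chromosomes. In 286 windows of 10 Mb with at least 10 tested genes (12880 genes with a GRCh38 position), 8 had a median log2 fold change of at least 0.5 in size. Of these, 3 lay on chromosome 3 beyond 100 Mb, and all 10 windows from there to the end were positive, with medians of 0.30 to 0.87. Over that stretch, whose limits were set after the window medians were seen, 226 of 368 tested genes (61.4%) were higher and 62 (16.9%) lower. The median was 0.46. Before 90 Mb the same chromosome had 140 higher and 119 lower of 360, with a median of 0.05. The window from 90 to 100 Mb, in neither count, had a median of 0.26 over 14 tested genes. Called genes beyond 100 Mb included PCNP (2.41-fold higher, 266 against 110.4 CPM) and TFG, which acts at the exits of the endoplasmic reticulum (2.26-fold higher). Also higher were COPG1, a coat protein of Golgi vesicles (2.60-fold), CNBP (2.09-fold), ATP13A3 (2.18-fold) and RNF168, a ubiquitin ligase of DNA repair (4.005-fold). FAM43A on the same stretch was 11.7-fold lower (2.05 against 24.1 CPM).

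Chromosome 19 showed the reverse. Beyond 30 Mb, 277 of 476 tested genes (58.2%) were lower and 68 (14.3%) higher, with a median of -0.50. Before 30 Mb 153 were higher and 147 lower of 414 (median -0.02). This limit too was set after the window medians were seen. The window from 50 to 60 Mb, with 148 tested genes, passed 0.5 in size (median -0.58). The stretch beyond 30 Mb holds many zinc finger genes, and the 128 tested genes with ZNF symbols had a median of -0.53, close to the -0.49 of the other 348. The 230 ZNF genes on other chromosomes had a median of 0.09. The KLK genes, MYADM and RPS19, the ribosomal protein gene called lower, lie in it, as does CEACAM5, which rose. On chromosome 9, 2 windows from 60 to 80 Mb had medians of 0.97 and 0.50, with 16 and 24 tested genes. They hold PTAR1 (2.68-fold higher) and ANXA1, annexin A1 (2.08-fold higher, 2645 ± 81.01 CPM in CA1 and 1269 ± 59.3 CPM in T1). The other 2 windows were on chromosome 1 from 190 to 200 Mb (median -0.68, 12 genes) and chromosome 6 from 50 to 60 Mb (median -0.64, 21 genes), where MCM3 lies. DNA copy number was not analysed here.

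**Figure D5:**
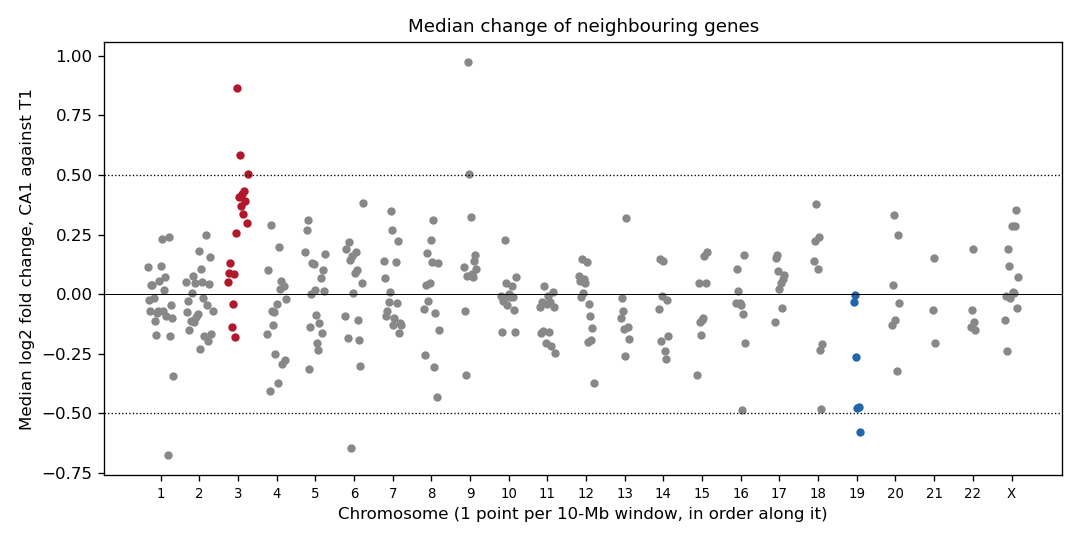
Median log2 fold change, CA1 against T1, of the tested genes in each 10-Mb window, by chromosome and in order along it. Dotted lines mark 0.5 and -0.5. The windows of chromosome 3 (red) rise in its later part, and the 3 last windows of chromosome 19 (blue) lie near -0.5.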

How the data were processed

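Per the labels, RNA from a combined DNA, RNA and peptide preparation was treated with DNase I and made into libraries with an NEBNext Ultra kit. The deposited table holds estimated counts (expected counts) per gene from Salmon, as its name says, not scaled between libraries. The submitters' processing notes name GRCh38 and limma, and the Salmon version, annotation and strand setting are not given in the sources used here. Of 29744 rows, 11510 had no count in the 6 libraries. Values were rounded to whole counts.

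Genes were filtered with filterByExpr, scaled with TMM and tested with edgeR 4.0.16 (quasi-likelihood, robust; R 4.3.3), two-sided, in a model of the 6 CA1 and T1 libraries. Chromosome positions and promoter sequences are from RefSeq (GRCh38.p14), with 23104 rows matched by symbol and 1787 by synonym. Counts were simulated for this comparison over 13038 genes, of which 99 were changed 2-fold and 100 were changed 4-fold. The test found 91.9% and 99% of these. Of its calls 10.8% were false, a share above the threshold of 0.05. Far fewer genes were changed there than the 71.7% called in the data, so these rates need not hold for the data. A gene at 0 in a line was set against a floor of 3 counts over that line, and 1 to 3 counts got an exact 95% counting interval, both for counting error only.

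The 43 gene lists, of which 1 had no tested member, were chosen with earlier results of these data known. Genes named are HRAS, the 15 largest rises and falls among called protein-coding genes of at least 10 CPM, up to 4 called members of a list by adjusted p and 2 of the other direction, up to 3 per window with a median of at least 0.5, genes at 0 in a line and the 10 most abundant that changed 2-fold. All others named were chosen for their known role or after their values were seen. Some genes that the rule names are not reported here, in the text or the figures. Alternatives were upper-quartile or RLE scaling, leaving out the filter, 1 CPM in 3 libraries as the filter, DESeq2 1.42.0, limma-voom (limma 3.58.1), a fit to all 12 libraries, a replicate block, glmTreat against 2-fold, no rRNA rows and each library left out.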

Additional observations from a re-analysis of the deposited data

How the results depend on the processing

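Every alternative analysis other than glmTreat, which tests against a 2-fold change by construction, kept the 4 counts of called genes within 1.5 times: 8973 to 10088 genes were called. With glmTreat 2072 genes were called, 926 higher and 1146 lower, and HRAS, at a log2 fold change of 0.93, was not called (adjusted p = 1). Leaving out 1 library at a time gave 9160 to 9515 called genes, 4487 to 4669 higher and 4673 to 4846 lower, 3152 to 3239 of them changed at least 2-fold, and an HRAS log2 fold change of 0.87 to 0.98. With the replicate block 9504 genes were called. The correlations of same-numbered libraries were -0.125, 0.0256 and 0.0573, and those of differently numbered libraries ran from -0.184 to 0.168. The labels do not say whether the numbers pair the samples, and these few values cannot decide it. The main fit used no block. The count of windows with a median of at least 0.5 in size was 22 of 442 with 5-Mb windows and 2 of 156 with 20-Mb windows, against 8 of 286.

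Of 297 genes named or looked up, 292 to 297 kept their call and direction in each alternative but glmTreat, where 198 did. Signs changed only for genes not called: with upper-quartile scaling for AREG (-0.00665) and ERBB2 (-0.00594), and with 1 library left out for AREG (-0.00975 to 0.0452), ERBB2 (-0.0368 to 0.0413), MMP14 (-0.0676 to 0.00250) and CCNA2 (-0.0100 to 0.0771). Calls of ITGAM, KLK6, NDUFA2, RNA18S5 and RPL27 were lost in some. The median of 34 of the 42 lists with a tested member kept its sign, glmTreat aside. At this depth a gene with 0 counts in a line is under 0.0454 CPM in CA1 or 0.0351 CPM in T1.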
